A study of Schizosaccharomyces pombe with 2 samples.

Results

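The arg7 and car1 block is a stretch of the left arm of chromosome II in fission yeast (Schizosaccharomyces pombe), described here by its contacts in a genome-wide Hi-C map. It consists of 3 adjoining bins of 10 kb, out of 1218 bins with values in the map and 1068 bins on chromosome arms. On the build ASM294v2, numbering bins by their start, the bin at II 300001 holds mug89 and nrs1, the next holds arg7 and dal52, and the one at II 320001 holds car1 and gor2. The bins were selected on a measured value, being among the 20 arm bins with the highest contact with the ends of the other chromosomes in this same map. Their contact with the ends of chromosome I is therefore given as a description and supports nothing further. The 39 bins with values within 200 kb on either side were taken as the surroundings.

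Hi-C joins DNA ends that lie close together in fixed nuclei, so that the number of sequenced ligation products reports how often 2 stretches of DNA were near each other. All cells carried sap1-1, a mutant form of sap1, whose product is a DNA-binding protein that fission yeast cannot live without. They came from log-phase cultures in YEA rich medium at 26 °C, moved to 33 °C for 6 hours, and were fixed with 3% formaldehyde for 20 min before HindIII digestion. The design lists 2 biological replicates of this 1 group with no strain to compare against, so effects of sap1-1 cannot be read from these values.

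In dividing fission yeast cells the telomeres gather at the nuclear envelope and the centromeres sit together near the spindle pole body. The ends of chromosome III carry the ribosomal DNA and lie at the nucleolus. Contact between chromosome ends is therefore high in such maps, and it falls off along each arm with the distance from the end. The block lies inside the arm, about 300 kb from the left end of II. Some of its genes, though not all, serve arginine and nitrogen use. arg7 encodes argininosuccinate lyase, which makes arginine in the last step of its synthesis, and car1 encodes arginase, which splits arginine into ornithine and urea. dal52 encodes a dipeptide transporter and gor2 a glyoxylate reductase. nrs1 encodes the enzyme that loads asparagine onto its tRNA, and mug89 encodes a subunit of a phospholipid-moving ATPase complex.

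The annotation places nrs1 at 301754 to 303723 and mug89 at 303915 to 306697, both on the minus strand. It places arg7 at 313257 to 314761 and dal52 at 315671 to 317629, both on the plus strand. On the minus strand it has gor2 at 321634 to 322980 and car1 at 323944 to 325230. The other genes with symbols are mug184, at the edge nearer the chromosome end, and fet4, an iron and zinc transporter gene at the edge nearer the centromere. Without symbols are 2 transcription factor genes, SPBC1773.12 and SPBC1773.16C, and an aromatic aminotransferase gene, SPBC1773.13. A glycine tRNA gene and an arginine tRNA gene lie beside car1. In all, 11 protein-coding genes, 20 long non-coding RNA genes and 2 tRNA genes overlap the 3 bins.

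The 200 bases upstream of the annotated starts of arg7, dal52 and car1 are shown because they share a run of 8 bases that is rare upstream of other genes. Each is printed on the strand of its gene, from the RefSeq sequence of the chromosome, with the run (TCCACGGA, or TCCGTGGA on the opposite strand) in capitals. The windows are II:313057-313256 for arg7, II:315471-315670 for dal52 and II:325231-325430 for car1.
arg7: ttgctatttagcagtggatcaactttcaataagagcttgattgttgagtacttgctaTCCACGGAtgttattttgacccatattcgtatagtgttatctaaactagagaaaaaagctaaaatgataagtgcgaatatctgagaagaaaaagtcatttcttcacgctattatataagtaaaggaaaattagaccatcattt
dal52: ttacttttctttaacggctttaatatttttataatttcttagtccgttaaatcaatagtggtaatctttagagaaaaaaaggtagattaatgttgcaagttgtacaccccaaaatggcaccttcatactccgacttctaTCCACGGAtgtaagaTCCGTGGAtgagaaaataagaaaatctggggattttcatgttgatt
car1: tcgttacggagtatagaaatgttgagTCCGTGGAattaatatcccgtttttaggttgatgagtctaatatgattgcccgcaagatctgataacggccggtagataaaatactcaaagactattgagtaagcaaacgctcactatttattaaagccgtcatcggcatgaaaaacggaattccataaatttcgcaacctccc

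The run occurred once upstream of arg7 and once upstream of car1, and dal52 had 2 copies, 1 on each strand. It was found by listing every 8-base run held by the upstream windows of at least 3 of the 6 members, on either strand, and 2 such runs existed. TCCACGGA was in 17 of 5112 upstream windows of the genome (0.333%), and the second run, ATTTAACG, upstream of dal52, gor2 and mug89, was in 156 (3.05%). Among the 17 genes was also the aromatic aminotransferase gene of the block, so 4 of them lie in the block. The other 13 included aru1, which encodes a second arginase, put2, which encodes the dehydrogenase for the proline and arginine breakdown product pyrroline-5-carboxylate, and the aromatic aminotransferase genes SPAC56E4.03 and SPCC569.07. The run was picked after these sequences were compared, and a match in a window is a description of its letters only.

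The HindIII sites of the block decide which ends could be ligated. There were 7 sites in the mug89 bin, 5 in the arg7 bin and 3 in the car1 bin, against a median of 5 over arm bins. The site inside arg7, which splits the gene between 2 fragments, and the 2 sites that bound the long fragment with gor2 and car1 are shown with 12 bases on each side, and the capitals mark the site.
arg7 site, II:314373-314402: aaagattgccgaAAGCTTgacccccgattt
left of gor2, II:320219-320248: aacgtttatccaAAGCTTtaacagcatttt
right of car1, in fet4, II:328331-328360: aagtggtaaatcAAGCTTttgataaagggc

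Both gor2 and car1 lie whole on that fragment of 8112 bases (320231 to 328342). The map holds bins of 10 kb, so the contacts of genes that share a bin cannot be told apart in it, whatever their fragments. arg7 and dal52 share a fragment of 2298 bases. arg7 also extends onto the fragment before it, and dal52 onto the next ones, of 105 and 3088 bases. The bins had AT contents of 65.0%, 65.4% and 65.0%, above the arm-bin median of 63.9% and inside the range of 60.9% to 66.0% that held the middle 95% of arm bins. Of the 30-base stretches of the 3 bins, 0% also occurred in an end window.

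The map is 1 matrix, and the sources used here do not say whether both replicates went into it, so there is no replicate error and no test. The values are corrected contact signal from which read numbers were recovered. The map held 37526864 recovered reads, with 7686 to 98119 per bin and a median of 11 for a pair of bins on different chromosomes. The mug89, arg7 and car1 bins had 56042, 58138 and 50622 reads, close to the median of 59437 for arm bins. Every interval below is a 95% Poisson interval on recovered reads. It covers counting error only and leaves out the error of the running median and the unequal weight of reads after correction. The 3 bins are neighbours on 1 chromosome and are not replicates of each other.

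The block met both ends of chromosome I more than the median of its surroundings, and the arg7 bin had the highest fold. An end window was made of the outermost 5 bins with values, and a fold is the summed contact with the window over the median contact of the bins of the same arm up to 100 kb to either side (the running median). With both ends of I together the arg7 bin had 472 reads and a fold of 2.24 (2.04 to 2.45). The mug89 bin had 398 reads and a fold of 1.97 (1.78 to 2.17), and the car1 bin had 327 reads and a fold of 1.83 (1.64 to 2.04). These values chose the bins. The intervals of the arg7 and mug89 bins overlap. Of the arm bins on other chromosomes, 1.91% were at 2 times the running median or more. Just outside the block, the bin of adh8 and sbp1, on the side of the chromosome end, had 1.72, and the bin of mti2 and aga1, on the side of the centromere, had 1.62.

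Contact with chromosome I was uneven between its 2 end windows, which cover unlike distances from the end. Blank bins put the left window at I 10001 and I 50001 to 80001, and the right window is I 5520001 to 5560001. The block had 2.36 with the left window and 1.37 with the right one. With the next 5 bins inward at the right end it had 2.27. With the left end of I the mug89, arg7 and car1 bins had folds of 2.32 (2.06 to 2.60), 2.57 (2.29 to 2.86) and 2.19 (1.91 to 2.49), and 3.13% of arm bins on other chromosomes were at 2 or more. With the right end of I they had 1.33 (1.10 to 1.60), 1.64 (1.39 to 1.93) and 1.14 (0.922 to 1.38), where 8.52% of arm bins were at 1.5 or more. The interval of the car1 bin at the right end includes 1.

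**Figure D1:**
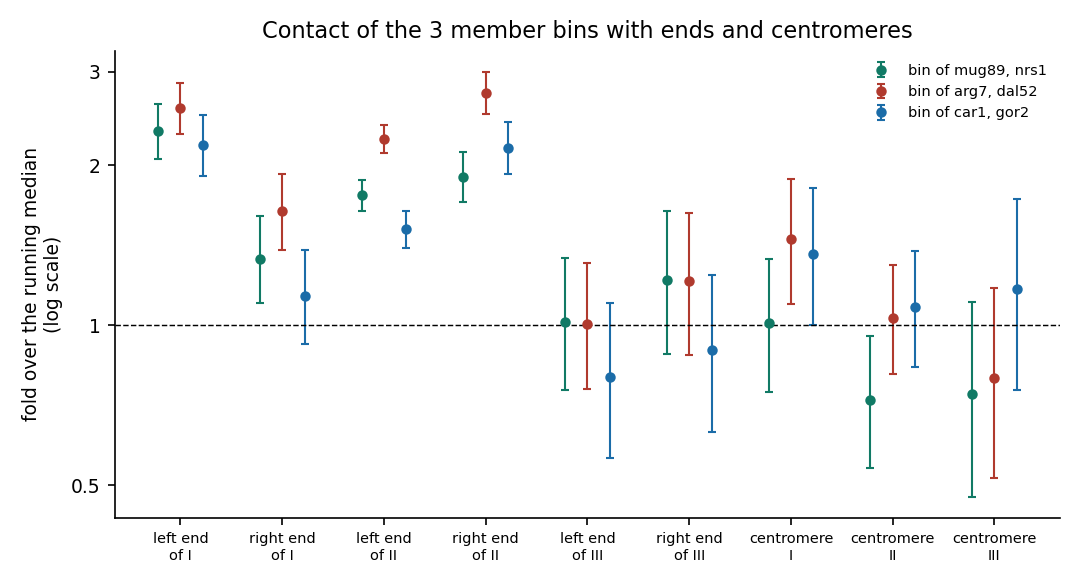
Fold of each member bin over the running median of its surroundings (log axis) for the 6 chromosome-end windows and the 3 centromere windows, with 95% Poisson intervals on recovered reads. The points for the left end of I and for the right end of II sit between 1.90 and 2.74, and those for the ends of III between 0.80 and 1.22.

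At the right end of I the contact peaked farther in than the end window. Taken bin by bin, the fold of the whole block was 0.791 (0.379 to 1.46) with the outermost bin of I that has values, on 10 reads. It was 2.74 (2.42 to 3.09) with bin I 5500001, 79.1 kb from the chromosome end. The outermost 5 bins together gave 1.37 (1.23 to 1.52), and the next 5 bins inward, 5470001 to 5510001, gave 2.27 (2.13 to 2.41). The arg7 bin had 2.87 with those next 5 bins, the mug89 bin 2.08 and the car1 bin 1.84. Bins 11 to 15 from the end gave 1.36 (1.26 to 1.47), and bins 16 to 25 gave 1.02 (0.947 to 1.09).

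The arg7 bin had the highest folds of the 3 bins there. It had 99 reads and a fold of 3.28 (2.66 to 3.99) with I 5510001 (yhb1), 111 reads and 3.32 (2.73 to 4.0) with I 5500001 (hry1, and the sulfate transporter gene sul2), and 92 reads and 2.92 (2.35 to 3.58) with I 5490001. The last of these bins holds put4, which encodes a proline transporter, and pcm2. The bin beside it, I 5480001, holds atd2 and cat1, and cat1 encodes an arginine and lysine transporter. With that bin the arg7 bin had 65 reads and a fold of 2.19 (1.69 to 2.79), and the car1 bin 59 reads and 2.44 (1.86 to 3.15).

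At the left end of I the contact peaked in the end window itself, which reaches farther in than the window at the right end. It holds bin I 10001 and the bins from I 50001 to I 80001, with blank bins between. The highest bin, I 80001, starts 80 kb from the chromosome end, about as far in as the peak at the right end. The block had folds of 2.47 (2.15 to 2.81) with I 60001 (dak2, a dihydroxyacetone kinase gene) and 2.53 (2.22 to 2.88) with I 80001 (shu1 and ght3). ght3, which encodes a gluconate transporter, is another gene with TCCACGGA upstream. Going inward, the fold was 2.36 (2.20 to 2.52) in the outermost 5 bins, 1.64 (1.53 to 1.75) in the next 5, 0.998 (0.910 to 1.09) in bins 11 to 15 and 0.995 (0.919 to 1.07) in bins 16 to 25.

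**Figure D2:**
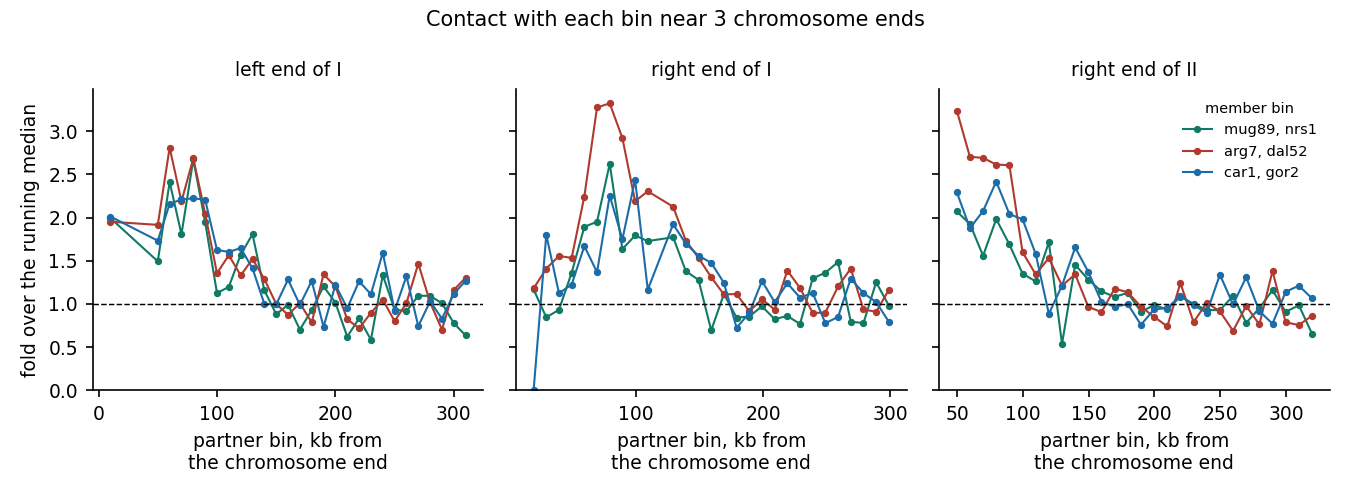
Fold of each member bin over the running median with every bin near the left end of I, the right end of I and the right end of II, against the distance of the partner bin from the chromosome end in kb. At the right end of I the arg7 bin is highest at 3.32, at 79.1 kb, whereas at the other 2 ends the folds are high from the outermost bins, and in all 3 panels the folds scatter around 1 beyond 200 kb.

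The right end of II, which the choice of bins did not use, was met by all 3 bins. The corrected contact value per bin pair was 88.1 for the mug89 bin, 125 for the arg7 bin and 92.3 for the car1 bin, from 331, 482 and 308 reads. The folds were 1.90 (1.70 to 2.12), 2.74 (2.5 to 3.0) and 2.16 (1.92 to 2.41). The interval of the arg7 bin lies above those of the other bins. Both the arg7 and car1 bins were at 2 or more, beside 1.74% of the 806 arm bins not on the arm of that end. All 3 were at 1.5 or more, beside 9.18%. By rank from the highest of these 806 bins they stood at 20, 4 and 10. These contacts come from the same map and the same bins as the values that chose the block. The contact was highest at the outer edge, with folds for the block of 2.27 (2.14 to 2.40) in the outermost 5 bins, 1.37 (1.29 to 1.46) in the next 5 and 1.05 (0.971 to 1.13) in bins 11 to 15.

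The left end of II, on the arm of the block itself, was met more than by bins at the same separation from other ends. Here contact depends on separation along the DNA, so it was divided by the mean of same-arm pairs of all arms at the same separation. The mug89 bin had 874 reads with this end and a fold of 2.96 (2.77 to 3.17). The arg7 bin had 1076 reads and 3.86 (3.63 to 4.10), and the car1 bin had 636 reads and 2.60 (2.40 to 2.81). The block together had 3.15 (3.03 to 3.27). Among 184 bins lying 150 to 450 kb from the end window of their own arm, with a median of 1.18, these bins ranked 2, 1 and 4. All 3 were at 2 or more, beside 3.26% of such bins (6 of 184), and at 1.5 or more were 19%. Those 6 bins include the 3 members themselves and the adjoining bins of adh8 and sbp1 (2.65) and of mti2 and aga1 (2.42). Of the 3, the arg7 bin alone stayed at 2 or more without the correction, with 2.32, where the mug89 bin had 1.78 and the car1 bin 1.44. The same held over the running median, with 1.76, 2.24 and 1.52 for the mug89, arg7 and car1 bins. Bins at the same separations from the other 5 ends had 0.769 to 1.56.

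The size of that excess depends on the correction and on the yardstick. Without the correction the block had 1.85, and over the running median of its surroundings 1.84. On the running median, the yardstick used for the other ends, it is lower than the 2.36 for the left end of I and the 2.27 for the right end of II. The 3 outermost bins of the left end of II had 13690, 16567 and 21712 reads, far under the arm-bin median, and the part of that low depth in the value was not tested. The bin of adh8 and sbp1 had 2.65 by separation and the bin of mti2 and aga1 had 2.42, so the excess reached past the block on both sides.

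Bin by bin toward its own end, the block kept a nearly flat level of contact from about 100 kb outward. The mean corrected value was 348 with the bin 100 kb away (tcg1 and mef2) and 309 with the bin 270 kb away (fah1, an acetamidase gene, and grt1, a transcription factor gene). Over this span the values ran between 269 and 353, while the mean of all arms fell, so the fold rose from 0.848 (0.800 to 0.898) to 3.52 (3.14 to 3.94). For the arg7 bin the same pair of folds was 0.818 (0.739 to 0.904) and 4.55 (3.84 to 5.37). The span stops at the bin with the highest fold. With the outermost bin that has values (ght7), 280 kb away, the value of the block was lower, at 251, and its fold was 3.01 (2.63 to 3.42). Contact with the end was therefore about as high as with bins much nearer along the DNA.

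**Figure D3:**
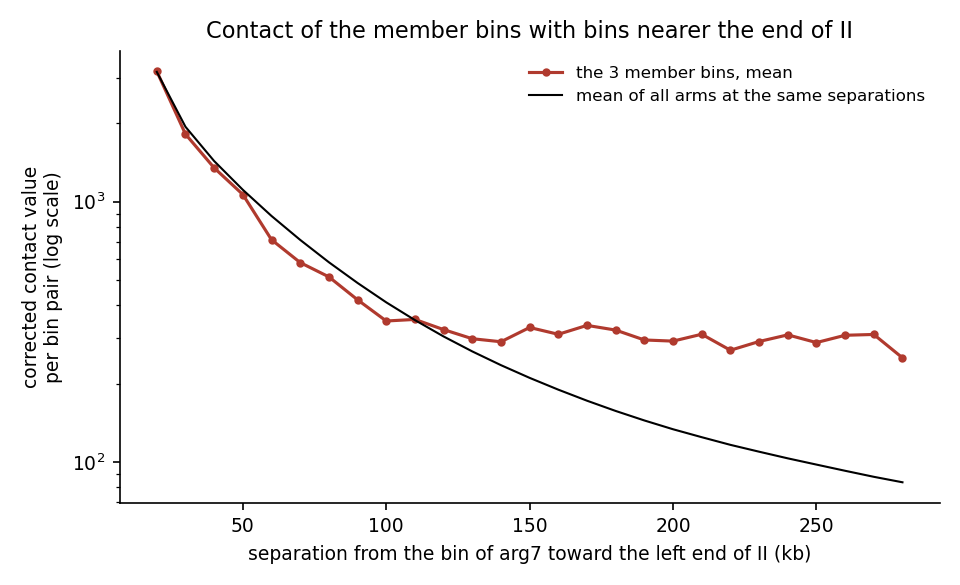
Mean corrected contact value of the 3 member bins with each bin toward the left end of II (log axis), against separation in kb, with the mean of all arms at the same separations as a black line. The member bins stay near 300 from about 100 kb outward, with 251 at the outermost bin, and the line falls below them.

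The ends of chromosome III were not met above the surroundings. With the left end of III the mug89, arg7 and car1 bins had folds of 1.02, 1.01 and 0.799, from 51, 55 and 37 reads. With the right end they had 1.22, 1.21 and 0.899, from 43, 44 and 36 reads. All 6 intervals include 1. For both ends of III together the car1 bin had 0.851 (0.667 to 1.07), and its interval lay below 1 without the correction, at 0.768 (0.602 to 0.966), and with windows of 20 kb, at 0.549 (0.293 to 0.94) on 13 reads. Of the 3 bins, 0 were at 1.5 or more at either end, beside 0.904% of arm bins for the left end and 1.69% for the right end. For both ends of III together the block had 1.02 (0.904 to 1.15), and it had 2.01 (1.90 to 2.13) on 1197 reads with both ends of I, the value the bins were chosen by.

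For the block as a whole, contact was near the surroundings with centromeres II and III and somewhat above them with centromere I. The block had 1.27 (1.08 to 1.49) with centromere I, 0.942 (0.813 to 1.09) with centromere II and 0.902 (0.708 to 1.13) with centromere III. The arg7 bin had 1.45 (1.10 to 1.88) with centromere I, from 56 reads, and the car1 bin had 1.36 (1.003 to 1.81), from 47 reads. By rank from the highest of 575 arm bins on other chromosomes, these bins stood at 22 and 33. The mug89 bin had 1.01 (0.750 to 1.33) with centromere I. With centromere II it had 0.725 (0.540 to 0.954), from 51 reads. Of the member bins, 0 were at 1.5 or more, beside 2.61% of arm bins for centromere I, 0% for centromere II and 9.38% for centromere III. Alternatives were run for centromeres I and III together and not for centromere I alone. There the block had 1.15 (1.01 to 1.31), and 1.09 (0.949 to 1.24) without the correction. The car1 bin had 1.36 (1.06 to 1.71), and 1.08 (0.847 to 1.36) without the correction.

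The high contact took in the block and the bins beside it, with lower levels farther out on both sides. With both ends of I the mean corrected value was 49.9 in the block, from 43.7 to 55.5. It was 23.9 (22.8 to 25.1) in the 4 bins from 230001 to 260001, which lie nearer the chromosome end, and 21.9 (21.5 to 22.2) in the 4 bins from 350001 to 380001. The block's level was 2.09 and 2.28 times these levels, which the choice of the bins fixes in direction. The adjoining bins were near the block's level on the side of the chromosome end, with 54.6 in the bin of adh8 and sbp1 and 43.3 in the bin of bcp1 and csc3 before it. On the other side the bin of mti2 and aga1 had 37.3. With the left end of II, the bins of adh8 and sbp1 (275) and of bcp1 and csc3 (239) were above the car1 bin (229). With the right end of II the values were 102 in the block and 38.4 on either side. With the left end of II they were 292 in the block, 158 in the bins nearer the end and 112 in the bins farther away. With the left end of III they were 10.7, 9.30 and 13.6, and the ranges overlap on the side nearer the end. With the right end of III the block was slightly above both sides, at 11.2, 8.58 and 10.4, and the ranges overlap on both sides. The trough between the block and the chromosome end includes clr3, which encodes a histone deacetylase of heterochromatin, and hub1, and those 4 bins had folds of 0.526 to 0.560 with the ends of I. At bin 200001 (wwm2 and wwm3), 110 kb from the arg7 bin, the value with the ends of I was again 60.2.

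**Figure D4:**
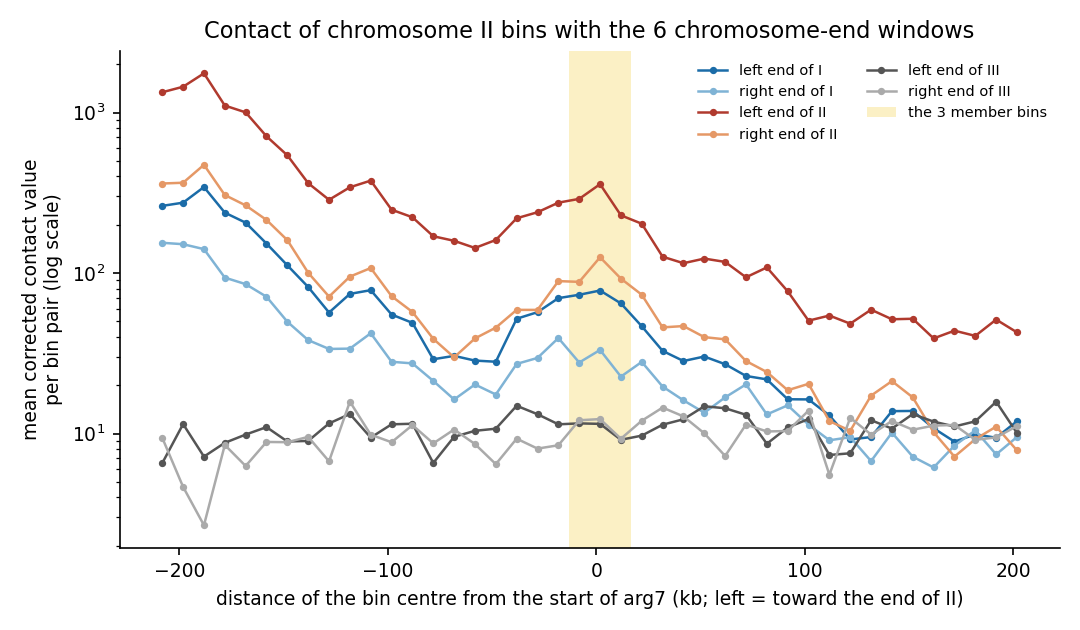
Mean corrected contact value per bin pair (log axis) of each bin within 200 kb of arg7 with the 6 end windows, against the distance of the bin centre from the start of arg7 in kb. The member bins, shaded, lie in a local maximum, which takes in the bins beside them, for the ends of I and II, with a trough on the side of the chromosome end, and no maximum shows for the ends of III.

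Within the block the bins met each other less than bins at their separation usually do. The mug89 and arg7 bins had 4190 reads and a fold of 0.811 (0.787 to 0.836), the arg7 and car1 bins had 3860 reads and 0.817 (0.792 to 0.844), and the mug89 and car1 bins had 2069 reads and 0.895 (0.857 to 0.934). For the 3 pairs together the fold was 0.831 (0.815 to 0.847). This was rank 30 from the lowest of 1039 sets of 3 adjoining arm bins, whose median was 0.989, and 15.9% of such sets were at 0.9 or less. Out of all corrected signal of a bin, the share within the bin itself was 6.71% for the mug89 bin, 4.13% for the arg7 bin and 4.57% for the car1 bin. The median over arm bins was 6.50%.

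Contact with the nearer parts of the arm was also slightly low. With bins 10 to 50 kb toward the centromere the mug89, arg7 and car1 bins had folds of 0.865, 0.868 and 0.874, and with bins 10 to 50 kb toward the end 0.920, 0.917 and 0.908. With bins 110 to 200 kb toward the end the folds were 1.50 (1.45 to 1.56), 1.55 (1.50 to 1.61) and 1.34 (1.28 to 1.39). At 110 to 200 kb toward the centromere they were 0.869, 0.871 and 0.934. Folds above 1 at this separation were thus found toward the end and not toward the centromere. No border stood at the block. Its insulation scores, the log2 of contact across a bin between the 5 bins on either side over the mean of arm bins, were 0.02, -0.00 and -0.03. Of the 3 bins, 0 were at -0.5 or less, beside 0.281% of arm bins, and the lowest score within about 100 kb was -0.27, at bin 230001.

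The shares of contact by place were ordinary for the arm. These are shares of each bin's corrected signal, leaving out the signal within the bin itself. With other chromosomes the mug89, arg7 and car1 bins had 19.0%, 19.0% and 19.5%, against a median of 18.7% on the left arm of II. Signal with the other arm of II made up 10.2%, 10.3% and 10.7%, against a median of 9.62%.

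Among single bins elsewhere, those with the highest contact for each member bin were mostly near the right end of I. Fold is here over pairs of bins at like distances from their centromeres, and bins needed 20 reads. The highest partner of the mug89 bin was I 5500001 (hry1, sul2), with 86 reads and a fold of 5.09 (4.07 to 6.29). That of the arg7 bin was I 5490001 (put4, pcm2), with 6.4 (5.16 to 7.85), and that of the car1 bin was I 5480001 (atd2, cat1), with 6.55 (4.98 to 8.44). All bins near an end have high values on this scale, and over the running median these 3 values were 2.62, 2.92 and 2.44. The arg7 bin also had 22 reads with III 1720001 (inv1, the invertase gene, and bdf1), a fold of 3.16 (1.98 to 4.78).

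Away from the ends, bin I 4510001, which holds mei2, ranked high among the arm bins. mei2 encodes an RNA-binding protein that controls entry into meiosis. This bin was the fifth partner of the mug89 bin, with 29 reads and a fold of 2.53 (1.70 to 3.64), and the arg7 and car1 bins had 1.90 (1.2 to 2.85) and 2.22 (1.42 to 3.3). With the block as a whole it had 76 reads and 2.22 (1.75 to 2.77), rank 2 of 1057 arm bins, of which 5.11% were at 1.5 or more. The first in rank was I 5360001 (ade4, csi2) at 2.32 (1.90 to 2.80). Over the running median the 2 bins had 1.82 (1.43 to 2.27) and 1.16 (0.95 to 1.40), so of these 2 the mei2 bin alone had an interval above 1. Bin II 2670001 (rad13, fma1), on the other arm of II, had 1.94 (1.55 to 2.39), and 1.58 (1.26 to 1.95) over the running median. Among other bins of high rank, I 4600001 had 1.56 (1.29 to 1.89) over the running median and I 5320001 had 1.18 (0.875 to 1.55). An interval above 1 on that scale was therefore not particular to the mei2 bin. The bin of mat3, in the mating-type region that forms heterochromatin, had 31 reads and 0.876 (0.595 to 1.24).

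The other genes of a fixed arginine list did not meet the block above the level of other arm bins. The list leaves out cat1, the arginine and lysine transporter gene near the right end of I, whose bin is described above. Of 11 genes in the arginine list, arg7 and car1 are members and 9 lie elsewhere. The folds of these 9 with the block had a median of 0.980 and ran from 0.90 to 1.27, and 4 were above 1. For all 1057 other arm bins the median was 0.982. Of the 9 genes, 0 were at 1.5 or more, beside 5.11% of arm bins. The highest was arg3, the ornithine carbamoyltransferase gene, at 1.27 (0.999 to 1.59) on 76 reads. aru1, the second arginase gene, had 0.958 (0.626 to 1.40) on 26 reads, and car2, the ornithine transaminase gene, 0.949 (0.768 to 1.16) on 95 reads. Of 7 nitrogen genes listed, 6 were found under their symbols and dal52 and gor2 are members. The other 4, dal51, ure2, ure4 and gor1, had folds of 1.15, 0.745, 0.722 and 0.959.

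Most of these genes were also not near the ends of other chromosomes. Outside the block, the 9 arginine genes had folds of 0.809 to 2.09 with the ends of I and II on other chromosomes, and aru1 alone was above 1.5. Of 1068 arm bins, 5.99% were at 1.5 or more by this measure. aru1 lies at I:1944179-1945368, in the middle of the left arm of I, and its fold of 2.09 was with the ends of II. The aru1 bin itself had no raised contact with the block.

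The bin whose contacts with the 10 end bins of I were most like those of the arg7 bin was II 2650001 (prp17, fab1), with a Pearson correlation of 0.874 over the 10 end bins, among 543 arm bins compared. Next were II 2230001 (spt8, oca3) with 0.847, III 800001 (ipi1, ers1) with 0.820, III 910001 (ada2, gad8) with 0.791 and II 1900001 (ubc7, yar1) with 0.787. The profile is one of shape and not of level. Their folds with the ends of I were 1.81, 1.24, 0.958, 0.778 and 1.05, against 2.24 for the arg7 bin. The 10 points of each profile share the depth of the end bins.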

How the data were processed

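The labels describe 2 biological replicates of sap1-1, and 1 matrix of them was used. The submitters' processing notes name Bowtie2 2.1.0 and the build ASM294v2. Per the file headers, the authors deposited contact signal between bins of 10 kb, iteratively corrected and including the diagonal. The values of each bin added up to 57251.422 to 57251.495, and 40 of 1258 bins were blank. The file header gives 37571192 reads and carries a tag for replicate 1.

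Iterative correction divides whole reads by a factor per bin, so each factor, and with it the reads behind each value, could be recovered. All values under 30 reads (100%) came within 0.05 of a whole number, and together the reads came to 99.9% of the number in the header. End windows were the outermost 5 bins with values, and centromere windows the bins within 50 kb of the middle of the gene-free stretch. Arm bins lay at least 200 kb from an end and 100 kb from a centromere. Inter-chromosomal and cross-arm pairs were set against the mean of pairs with like distances from the centromeres, in steps of 100 kb. The upstream and HindIII sequences and the genes came from a RefSeq copy of the genome whose chromosome lengths equal those of the map.

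In a simulated map of 400 bins with a smooth mean, 20 bins standing apart were raised 2 times. Taken on the simulated reads themselves, their mean fold was 1.96, and 0 of the others were at 1.5 or more. The real map is not smooth and the block is 3 adjoining bins, so the simulation cannot say how often high folds arise there. The members and lists were chosen with earlier results of these data known. Genes were named by their bin, at most 2 nearest the middle, for the neighbours of the block, the 5 highest partners and the 5 most alike profiles, besides the members and the lists. The mei2 partner beyond the mug89 bin, mat3, rad13, the first-ranked arm bin, the bins toward the end of II and near the ends of I, the genes of the trough and the genes with the 8-base run were named after their values were seen. With 1 map, results are descriptions with no test. Alternatives were no correction, other window widths, other medians and expectations, and end bins with shared sequence left out. The tools were Numba 0.67.0, pandas 2.3.3, NumPy 2.4.6 and SciPy 1.17.1 under Python 3.11.15, with matplotlib 3.10.9 for the figures.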

Additional observations from a re-analysis of the deposited data

How the results depend on the processing

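No paired analysis was possible because the series has 1 group and 1 map, and the columns carry no replicate. Of 33 alternative values for the results on the whole block, 22 stayed inside the counting interval of the value reported and 11 lay outside it, and for single bins the numbers were 59 and 22. Without the iterative correction folds fell to 1.80 for the ends of I and 1.85 for the left end of II, contact among the 3 bins was 0.795, and the insulation score of the block was -0.058 on the log2 scale. End windows of 20 kb gave 1.62 for the ends of I and 3.27 for the left end of II. End windows of 100 kb gave 1.70 for the right end of II and 2.67 for the left end of II. Leaving out the 4 end bins that share 10% or more of their 30-base stretches with ends of another chromosome gave 2.15 for the ends of I. The running median in place of the separation gave 1.84 for the left end of II, and the left arm of II alone as the expectation gave 0.856 for contact among the 3 bins. The cause of these shifts was not tested. For the whole block, in all alternatives run, the folds with the ends of I and with both ends of II stayed above 1.5, contact among the 3 bins stayed below 0.9, and the fold with the ends of III lay between 0.94 and 1.05. Single bins fell under 1.5 in 3 cases, the car1 bin with the ends of I at windows of 20 kb (1.48) and with the left end of II without the correction (1.44), and the mug89 bin with the right end of II at windows of 100 kb (1.41).

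Depth limits single pairs of bins most, with a median of 11 reads for a pair on different chromosomes, so that partners with 36 reads or fewer have intervals whose bounds differ by about 2 times or more. With 1 map, no spread between cultures can be given, and several end bins have few reads.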

Other observations

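The contact of the block with the mei2 bin reached past the block. The bin of mti2 and aga1, the next toward the centromere, had 19 reads with I 4510001 and a fold of 1.89 (1.14 to 2.96), and the bin after it had 14 reads and 1.10 (0.601 to 1.84). These 2 bins hold sme2 between them (II:339346-340907), which encodes the meiotic non-coding RNA that the Mei2 protein binds. The gene is on the minus strand, so its start lies in the second of these bins, whose interval includes 1. A link between sme2 and these contacts was not tested. Near mei2, bins I 4580001 (emi5, acp1) and I 4600001 (mug157, ppr5) ranked 7 and 3 of 1057 arm bins, with folds with the block of 1.93 (1.55 to 2.39) and 2.13 (1.75 to 2.57). Over the running median they had 1.56 (1.25 to 1.93) and 1.56 (1.29 to 1.89). The choice of these genes followed from their values.

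The 13 genes outside the block with TCCACGGA upstream had folds with the block of 0.726 to 3.09. The highest was ght3, inside the window of the left end of I. Contact with that window was among the values that chose the block, so a high value was fixed by the choice. These folds are over pairs at like distances from the centromeres, and over the running median the ght3 bin had 2.53. The next was stm1, a G-protein-coupled receptor gene, at 1.69. Of arm bins, 5.11% were at 1.5 or more with the block. aru1 had 0.958 and put2 had 0.726.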
